A study of Mus musculus with 2 samples.

Results

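Genes for collagen and laminin chains and for 9 other proteins of the extracellular matrix were followed through both libraries of an RNA sequencing study of mouse forebrain. The rule took every gene row whose symbol is that of a collagen chain or a laminin alpha, beta or gamma chain, or is one of Nid1, Nid2, Fn1, Sparc, Lum, Dcn, Bgn, Hspg2 and Agrn. It found 64 of 43346 gene rows, of which 44 encode collagen chains and 11 encode laminin chains. By textbook assignment, 11 were grouped as fibrillar, 23 as basement membrane and 30 as other matrix genes. The study has one group, forebrain tissue of healthy B6NCrl mouse embryos at embryonic day 11.5, male and female pooled, with no treatment or allele named. Replicate 1 was a pool of 109 embryos and replicate 2 a pool of 88. Each library was made from 1 cell-equivalent of total RNA longer than 200 nucleotides by a SmartSeq protocol, which amplifies full-length complementary DNA, and held 27395002 expected counts over genes in replicate 1 and 27977544 in replicate 2. With one group and 1 library a pool, no groups can be compared, and each gap described here is between a pair of libraries with no test behind it.

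Fibrillar collagens assemble from chains wound into a long triple helix in which glycine recurs at a fixed interval, and give connective tissue its strength. Basement membranes are thin sheets built of a laminin network and a collagen IV network, linked by nidogens and heparan sulphate proteoglycans. In the embryonic forebrain a basement membrane lies at the outer face of the neuroepithelium, where radial glial endfeet attach, and another surrounds the blood vessels that grow in. The fibrillar genes are known mostly from the mesenchyme around the brain, from which the meninges form.

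The matrix genes most abundant in this tissue were Sparc, Lum and the genes of the interstitial collagens I and III, and they were read in both libraries. Fewer of the genes were read in both libraries than in 1 or none. Detection was set at 1 TPM (transcripts per 1000000 transcripts, a level per length). By that measure 21 of the 64 were detected in both libraries, which is 32.8%. The same share was 16.6% over all gene rows and 30.4% over protein-coding gene rows, so the share of matrix genes lay near that of protein-coding genes. Another 7 were detected in replicate 1 alone, 9 in replicate 2 alone and 27 in neither, among them 22 with 0 counts in both. Over all 43346 gene rows, 1721 were detected in replicate 1 alone, 2606 in replicate 2 alone and 31812 in neither. Among those, 29120 had 0 counts in both. Where the mean TPM was 10 or more, 18 of 22 matrix genes were detected in both libraries, or 81.8%, beside 80.5% of all genes at that level. At a mean TPM of 1 to 10 it was 3 of 14, or 21.4%, beside 30.0% of all genes. Those 3 were Lamb1, Lama1 and Col4a2.

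**Figure D1:**
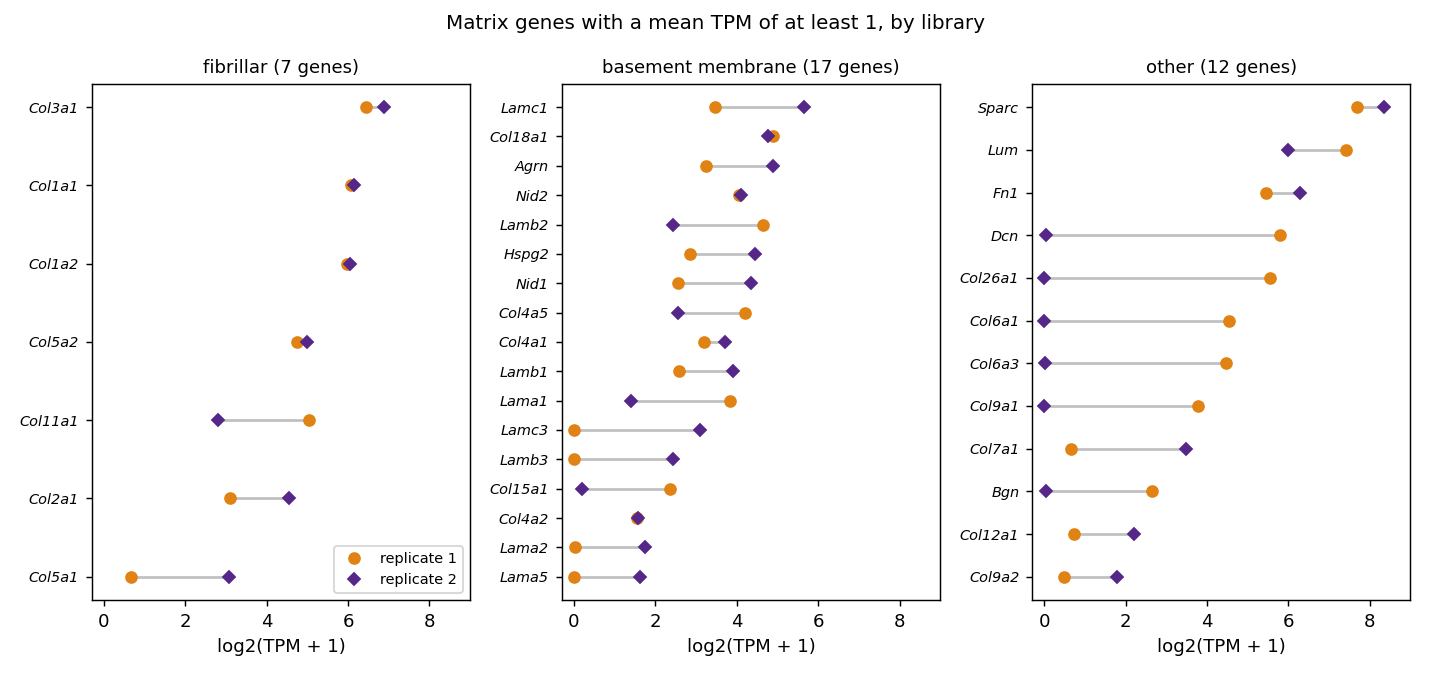
Level of each matrix gene whose mean TPM reached 1, as log2(TPM + 1) on the x axis, in replicate 1 (circles) and replicate 2 (diamonds), in the panels fibrillar, basement membrane and other; a grey line joins the values of a gene. Col1a1, Col1a2, Col18a1, Nid2 and Col4a2 have nearly coincident points, while Dcn, Col26a1, Col6a1, Col6a3 and Col9a1 lie at or near 0 in replicate 2.

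As a whole the 64 genes took a similar share of both libraries. Their TPM summed to 1007 in replicate 1 and 1021 in replicate 2, and their counts were 0.270% and 0.282% of gene counts in those libraries. Fibrillar genes summed to 280 TPM in replicate 1 and 319 in replicate 2 (300 ± 28.0, SD, n = 2). Basement membrane genes summed to 147 TPM in replicate 1 and 218 in replicate 2 (182 ± 49.8, SD, n = 2). The other matrix genes summed to 580 TPM in replicate 1 and 484 in replicate 2 (532 ± 67.9, SD, n = 2). Sparc and Lum held most of that last sum. In bulk tissue, fewer cells of a type and less RNA per cell cannot be told apart, and this holds for every level given here.

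Markers of neuroepithelium and radial glia were read in full, and the markers of other cells except blood in part. The share detected in both libraries was 33.3% for mesenchyme and meninges, 35.7% for endothelium and 37.5% for pericytes and smooth muscle. It was 28.6% for surface ectoderm and 12.5% for cartilage, beside 30.4% of protein-coding gene rows. Apart from cartilage, these shares lay near that of protein-coding genes. All 8 neuroepithelial and radial glial markers were detected in both libraries, with summed TPM of 1362 in replicate 1 and 2526 in replicate 2. Vim alone was at 741 TPM in replicate 1 and 1290 in replicate 2. Of 12 mesenchymal and meningeal markers, 4 were detected in both libraries, with summed TPM of 430 in replicate 1 and 386 in replicate 2. Most of that sum was the retinoid-binding gene Crabp2, at 344 and 320 TPM in replicates 1 and 2, while Foxc2, Twist2, Tbx18 and Aldh1a2 had 0 counts in both libraries. Of 14 endothelial markers 5 passed in both libraries, with summed TPM of 151 in replicate 1 and 155 in replicate 2, and of 8 pericyte and smooth muscle markers 3 did, at 131 and 178. Of 8 cartilage markers, 6 had 0 counts in both libraries, and Sox9, which neural progenitors also express, was at 64.2 TPM in replicate 1 and 68.0 in replicate 2. Of 7 surface ectoderm markers, 2 were detected in both libraries, with summed TPM of 89.0 in replicate 1 and 15.5 in replicate 2. All 4 globin genes listed were detected, at summed TPM of 27418 and 32830. The part of these cells in the matrix gene levels was not tested.

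Fibrillar collagens were led by the chains of collagens III and I. Col3a1, whose product forms homotrimers in pliable tissues (chr1:45311538-45349706, mm10), was at 85.8 TPM in replicate 1 and 117 in replicate 2, from 8343 and 8972 counts. Its 51-exon transcript alone was at 65.9 TPM in replicate 1 and 68.3 in replicate 2. Col1a1 (chr11:94936224-94953042), the alpha 1 chain of collagen I, was at 66.1 TPM in replicate 1 and 70.3 in replicate 2. Col1a2 (chr6:4504814-4541544), the alpha 2 chain, was at 61.7 TPM in replicate 1 and 65.1 in replicate 2. The collagen I chains assemble with more alpha 1 than alpha 2 chains in each trimer. Their TPM, a level of RNA and not of protein, stood in a ratio of 1.07 in replicate 1 and 1.08 in replicate 2 (1.08 ± 0.0065, SD, n = 2). In counts the ratio was 1.03 in replicate 1 and 1.21 in replicate 2. Their log2(TPM + 1) differences, replicate 1 minus replicate 2, were -0.09 for Col1a1 and -0.08 for Col1a2, both close to 0. A Col1a1 transcript of 337 bases held 14.7% of its TPM in replicate 1, from 51.73 counts, and none in replicate 2. The 51-exon Col1a1 transcript was at 56.4 TPM in replicate 1 and 70.3 in replicate 2, beside 61.1 and 64.2 for the 52-exon Col1a2 transcript. By these transcripts alone, Col1a1 stood below Col1a2 in replicate 1 and above it in replicate 2.

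Col5a2, a chain of the collagen V that nucleates collagen I fibrils, was at 26.0 TPM in replicate 1 and 31.0 in replicate 2. Its counts ran the other way, with 3802 in replicate 1 and 2055 in replicate 2. The transcripts behind the TPM differed as well, since a retained-intron transcript of 356 bases held 50.02% of the gene's TPM in replicate 2 and none in replicate 1. Its partner Col5a1 was at 0.60 TPM in replicate 1 and 7.41 in replicate 2, from 88 and 418 counts. Col11a1, a chain of the cartilage collagen XI, was at 31.9 TPM in replicate 1 and 6.0 in replicate 2, from 2185 and 966 counts. A 25-exon transcript annotated as a target of nonsense-mediated decay held 69.6% of its TPM in replicate 1 and 5.99% in replicate 2, while its 67-exon transcript was at 4.21 TPM in replicate 1 and 5.64 in replicate 2. Col2a1, the collagen of cartilage, which the early neuroepithelium also makes, was at 7.62 TPM in replicate 1 and 22.5 in replicate 2, from 854 and 1939 counts. So of the 6 fibrillar genes detected in both libraries, Col3a1, Col1a1, Col1a2 and Col5a2 lay within 2-fold in TPM, Col11a1 was higher in replicate 1 and Col2a1 in replicate 2. Col5a3, Col11a2 and Col24a1 had 0 counts in both libraries, and Col27a1 had 0 counts in replicate 1 and 19 in replicate 2.

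The repeat that makes the triple helix can be read in the coding sequences of these genes. Glycine codons begin with GG, and the longest stretch in which each triplet of codons opened with one held 338 triplets in Col1a1, 344 in Col3a1, 339 in Col2a1, 339 in Col5a2 and 338 in Col11a1. In the basement membrane chains the pattern was broken many times. Col4a1 had 23 separate stretches of 3 triplets or more, the longest of 40, Col4a2 had 24 with a longest of 66, and Col4a5 had 23 with a longest of 42. Col18a1 had 16 stretches with a longest of 30. The first 27 codons of the longest stretch show the same pattern in a chain of each kind, with the glycine codons in capitals (coding strand, from the annotated transcripts on mm10).
Col1a1: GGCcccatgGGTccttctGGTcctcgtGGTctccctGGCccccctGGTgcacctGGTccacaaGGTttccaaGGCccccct
Col4a1: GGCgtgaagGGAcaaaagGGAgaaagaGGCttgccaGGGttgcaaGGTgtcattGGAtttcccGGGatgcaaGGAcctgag

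Of the 23 basement membrane genes, 12 passed in both libraries, or 52.2%, beside 30.4% of protein-coding gene rows. Another 1 was detected in replicate 1 alone, 5 in replicate 2 alone and 5 in neither. Nid1, Nid2, Hspg2, Agrn and Col18a1 were all detected in both libraries. Nid2 (chr14:19751265-19811787), a nidogen that bridges laminin and collagen IV, was at 15.6 TPM in replicate 1 and 16.2 in replicate 2. Nid1, the other nidogen, was at 4.84 TPM in replicate 1 and 19.4 in replicate 2, from 644 and 2558 counts. Thus the nidogens differed in how closely the libraries matched, with a difference of -0.05 for Nid2 and -1.80 for Nid1 on the log2(TPM + 1) scale. Hspg2 (chr4:137468769-137570630), which encodes perlecan, was at 6.18 TPM in replicate 1 and 20.99 in replicate 2, from 1949 and 6557 counts. Agrn (chr4:156165290-156197488), which encodes the proteoglycan agrin, was at 8.5 TPM in replicate 1 and 28.5 in replicate 2, from 945 and 2203 counts. A 5-exon retained-intron transcript held 42.3% of the TPM of Agrn in replicate 1 and 70.5% in replicate 2. Col18a1 (chr10:77052178-77166548), a collagen whose C-terminal fragment is endostatin, was at 28.5 TPM in replicate 1 and 26.3 in replicate 2. Col15a1, its nearest relative, had 155 counts in replicate 1 and 2 in replicate 2, a ratio of 79.1 in counts per 1000000 (CPM; 95% exact interval 21.5 to 659, counting error only). Nid2 overlaps the gene Rtraf and Col18a1 overlaps Slc19a1, each on the opposite strand, and since the use of strand in counting is not given in the sources used here, their reads may not be separable.

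The RNA of the collagen IV chains was read at very unequal levels. Col4a1 (chr8:11198423-11312826) was at 8.15 TPM in replicate 1 and 12.1 in replicate 2, and its partner Col4a2 (chr8:11312805-11449287) was at 1.91 TPM in replicate 1 and 1.99 in replicate 2, from 271 counts in each. The chains are known to assemble as alpha 1, alpha 1, alpha 2. The TPM ratio of Col4a1 to Col4a2, of RNA and not of protein, was 4.27 in replicate 1 and 6.09 in replicate 2 (5.18 ± 1.29, SD, n = 2). Col4a5 (chrX:141475385-141689234), a chain known from the basement membranes of kidney and other organs, was at 17.4 TPM in replicate 1 and 4.90 in replicate 2, so it stood above Col4a1 in replicate 1 and below it in replicate 2. Most of its TPM, 85.4% in replicate 1 and 100% in replicate 2, went to a transcript of 3511 bases and 21 exons, while the 54-exon transcript had 351 counts in replicate 1 and 0 in replicate 2. Col4a3 and Col4a4 had 0 counts in both libraries, and Col4a6 had 0 counts in replicate 1 and 3 in replicate 2.

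Col4a1 and Col4a2 run in opposite directions from overlapping 5′ ends on chromosome 8, and their start sites are 21 bases apart in RefSeq. Both promoter windows, each of 300 bases from 250 before to 50 after the start, are shown because these neighbours had such different levels. They overlap by 78 bases on opposite strands. Capitals mark CCAAT and GGGCGG, searched on both strands (RefSeq, GRCm38.p6; Col4a1 at chr8:11312777-11313076 on the minus strand, Col4a2 at chr8:11312555-11312854 on the plus strand).
Col4a1: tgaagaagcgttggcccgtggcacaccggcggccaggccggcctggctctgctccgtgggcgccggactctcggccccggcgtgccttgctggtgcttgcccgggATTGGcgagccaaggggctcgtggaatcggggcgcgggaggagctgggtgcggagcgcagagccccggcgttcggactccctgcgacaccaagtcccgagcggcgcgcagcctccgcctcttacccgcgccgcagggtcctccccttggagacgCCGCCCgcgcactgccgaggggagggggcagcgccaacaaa
Col4a2: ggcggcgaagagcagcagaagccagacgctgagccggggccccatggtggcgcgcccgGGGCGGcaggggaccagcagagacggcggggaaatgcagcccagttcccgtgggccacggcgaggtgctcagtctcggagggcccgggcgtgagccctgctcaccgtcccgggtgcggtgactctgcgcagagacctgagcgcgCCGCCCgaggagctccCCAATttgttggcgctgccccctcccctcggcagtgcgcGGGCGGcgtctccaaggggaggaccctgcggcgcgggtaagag
GGGCGG was found in 31 of the 50 promoter windows of the 45 matrix genes that RefSeq lists, which is 62.0%, beside 35.7% of all 32851 promoters. CCAAT was found in 30.0% of the matrix gene windows and 37.4% of all, and TATAAA in 5 of the 50 windows beside 13.6% of all. These are matches of letters only. Other pairs of neighbours also had unlike levels. Dcn and Lum stand 46984 bases apart on chromosome 10, and Col6a2 and Col6a1 stand 85161 bases apart on the same chromosome, with Col6a2 at 0 counts in replicate 1 and 4 in replicate 2. Col3a1 and Col5a2, 24614 bases apart on chromosome 1, were both read in both libraries.

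Laminins join an alpha, a beta and a gamma chain, and 4 of the 11 chain genes passed in both libraries, namely Lamc1, Lamb2, Lamb1 and Lama1. That share was 36.4%, near the 30.4% of protein-coding gene rows. Lamc1 (chr1:153218922-153332786), the gamma chain of most laminins, was at 10.1 TPM in replicate 1 and 49.4 in replicate 2, but from 1471 and 2023 counts. The gap in TPM came with a change of transcript, since a transcript of 1447 bases and 3 exons held 82.7% of the gene's TPM in replicate 2 and none in replicate 1, while the 28-exon transcript held 85.2% in replicate 1 and 9.00% in replicate 2. The 28-exon transcript alone was at 8.61 TPM in replicate 1 and 4.45 in replicate 2. Lamb1 (chr12:31265234-31329644) was at 4.99 TPM in replicate 1 and 13.99 in replicate 2, and Lamb2 (chr9:108479736-108490530), the other common beta chain, was at 24.0 TPM in replicate 1 and 4.41 in replicate 2. The leading beta chain gene was therefore Lamb2 in replicate 1 and Lamb1 in replicate 2. The TPM ratio of Lamb1 to Lamc1 was 0.494 in replicate 1 and 0.283 in replicate 2, and in counts it was 0.417 and 0.864.

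Lama1 (chr17:67697259-67822647), the alpha chain of the first laminin of the embryo, was the alpha chain gene read in both libraries, at 13.2 TPM in replicate 1 and 1.66 in replicate 2 from 2773 and 346 counts. Lama2, Lama4 and Lama5 were read in replicate 2 with at most 1 count in replicate 1. Lama2 had 1 count in replicate 1 and 17 in replicate 2, a CPM ratio of 0.0601 (interval 0.00144 to 0.383). Lama5 had 0 counts in replicate 1 and 29 in replicate 2, and Lama4, an alpha chain of vessel laminins, had 0 and 79. Almost none of these replicate 2 counts lay on transcripts annotated as protein-coding. All 29 of Lama5 went to a transcript of 734 bases not annotated as protein-coding. A retained-intron transcript held 77.38 of the Lama4 counts, and non-coding transcripts held those of Lama2 (11.54 and 5.46). Against a floor of 3 counts, Lama4 was at least 25.8-fold lower in replicate 1 and Lama5 at least 9.47-fold lower. The interval for Lama2 and all bounds in this paragraph cover counting error only. Lamc3 (chr2:31887291-31946539) had 0 counts in replicate 1 and 971 in replicate 2, at least 317-fold lower in replicate 1. Lamb3 had 0 counts in replicate 1 and 384 in replicate 2, at least 125-fold lower in replicate 1, and it overlaps G0s2 on the opposite strand. Lama3 had 0 counts in both libraries.

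Among the other matrix genes 3 of 30 were detected in both libraries, and these included the most abundant of all. Sparc (chr11:55394500-55423183), whose product is a collagen-binding glycoprotein, was at 204 TPM in replicate 1 and 328 in replicate 2, from 8487 and 12686 counts. Lum (chr10:97565128-97572703), which encodes the small leucine-rich proteoglycan lumican, was at 169 TPM in replicate 1 and 62.6 in replicate 2, from 7483 and 2746 counts. Fn1 (chr1:71585520-71653200), which encodes the cell-adhesive glycoprotein fibronectin, was at 42.9 TPM in replicate 1 and 76.7 in replicate 2, from 2450 and 6817 counts. Sparc was higher in replicate 2 by less than 2-fold and Lum higher in replicate 1 by more than 2-fold.

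Several other genes of this class were read almost wholly in replicate 1. Dcn (chr10:97479609-97518143), which encodes decorin, a relative of lumican, was at 54.8 TPM in replicate 1 and 0.03 in replicate 2, from 2191 counts and 1 count. Its CPM ratio was 2238 (interval 401 to 88419.9). This interval, like the intervals and bounds that follow, covers counting error only. With amplified libraries from 1 cell-equivalent of RNA, none of them bounds a difference in the tissue. Col6a1 (chr10:76708792-76726168) and Col6a3 (chr1:90765923-90843971), chains of the beaded microfibrils of collagen VI, had 1979 and 1783 counts in replicate 1 against 0 and 1 in replicate 2. By CPM, Col6a1 was at least 674-fold higher in replicate 1, and the ratio of Col6a3 was 1821 (interval 326 to 71962). Col26a1 (chr5:136741759-136883209) had 592 counts in replicate 1 and 0 in replicate 2, at least 202-fold higher in replicate 1. Most of these went to short transcripts not annotated as protein-coding. A retained-intron transcript of 949 bases held 387.72 counts and another transcript of 426 bases held 180.63. The protein-coding transcript of Col26a1 had 23.65 counts and 0.40 of the gene's 45.47 TPM in replicate 1. Col9a1, a chain of the collagen IX that coats cartilage fibrils, had 850 counts in replicate 1 and 0 in replicate 2, at least 289-fold higher in replicate 1. Bgn, which encodes biglycan, the closest relative of decorin, had 223 counts in replicate 1 and 2 in replicate 2, a CPM ratio of 114 (interval 31.2 to 946). In the opposite direction, Col7a1, the collagen of anchoring fibrils, had 119 counts in replicate 1 and 835 in replicate 2, Col12a1 had 143 and 209, and Col9a2 had 26 and 152. Col8a2, a chain of a network-forming collagen, had 31 counts in replicate 1 and 65 in replicate 2, and Col23a1 had 0 and 1. The genes with 0 counts in both libraries were Col6a4, Col6a5, Col6a6, Col8a1, Col9a3, Col10a1, Col13a1, Col14a1, Col16a1, Col17a1, Col19a1, Col20a1, Col22a1, Col25a1 and Col28a1, which by counting error alone allows up to 0.110 CPM each in replicate 1 and 0.107 in replicate 2. All 6 genes of this class detected in replicate 1 alone were among those just named. The mesenchymal and meningeal markers did not all differ the same way. Pdgfrb was at 14.6 TPM in replicate 1 and 0.09 in replicate 2 and Snai2 at 51.7 and 19.7, while Twist1 was at 0 and 18.1, Foxc1 at 0 and 1.74 and Prrx1 at 9.79 and 16.5. Pdgfra was at 9.74 TPM in replicate 1 and 10.05 in replicate 2, and Foxd1 had 0 counts in replicate 1 and 5 in replicate 2. The part of these cells in the result was not tested.

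**Figure D2:**
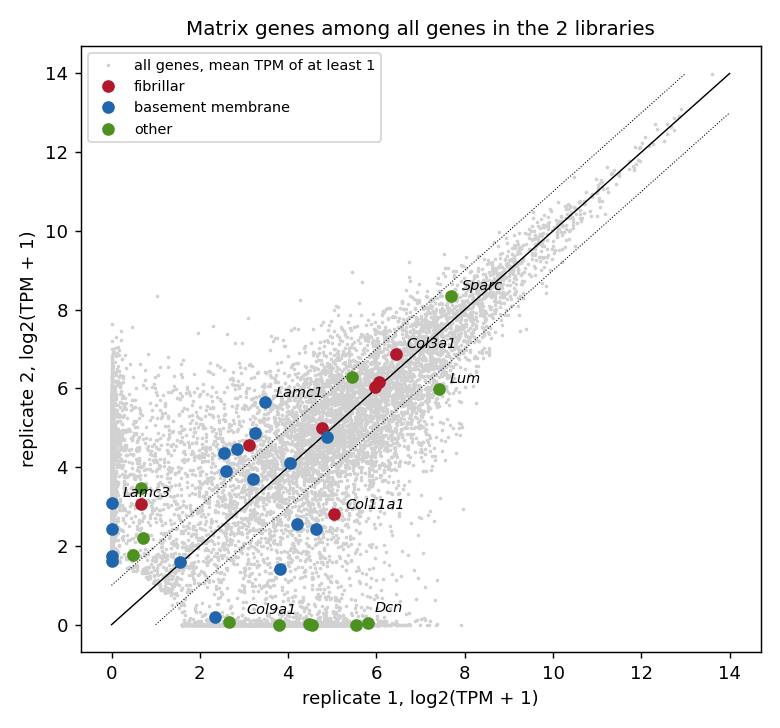
Replicate 1 (x axis) against replicate 2 (y axis), each as log2(TPM + 1), for every gene whose mean TPM reached 1 (grey) and the matrix genes among them (coloured by class); the solid line marks equality and the dotted lines a difference of 1. Sparc and Col3a1 lie near the line, Dcn and Col9a1 lie on the x axis and Lamc3 on the y axis, within the spread of the grey points.

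Read against all genes, gaps of this size between the libraries were usual at these levels. Of the 22 matrix genes whose mean TPM reached 10, 13 were at least 2-fold apart in TPM, or 59.1%, beside 51.3% of all 7680 genes at that level. Of these, 8 were higher in replicate 1, beside 24.7% of all genes, and 5 were higher in replicate 2, beside 26.6%. Under 1% of depth-scaled counts in one library was found for 4 of 22, namely Dcn, Col26a1, Col6a1 and Col6a3, which is 18.2%, beside 18.1% of all genes. The median difference, replicate 1 minus replicate 2 in log2(TPM + 1), was -0.08 over these 22 genes and -0.02 over all genes at that level. Where the mean TPM reached 1 it was -0.24 over 7 fibrillar genes, -1.32 over 17 basement membrane genes and 2.01 over 12 other matrix genes, beside -0.12 over 11107 genes.

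TPM and counts gave the same number of 2-fold gaps but not all the same genes. By CPM from the expected counts, 13 of the 22 differed at least 2-fold, beside 51.2% of all genes, and 12 of them also did so in TPM. Lamc1 was 2-fold apart in TPM alone, at -2.18 in TPM and -0.42 in CPM on the log2 scale. Fn1 was 2-fold apart in CPM alone, at -0.82 in TPM and -1.44 in CPM. Col5a2 changed sign, at -0.24 in TPM and 0.91 in CPM. Sparc, Col3a1, Col1a1, Col1a2, Col5a2, Col18a1, Nid2 and Col4a1 were within 2-fold on both scales.

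**Figure D3:**
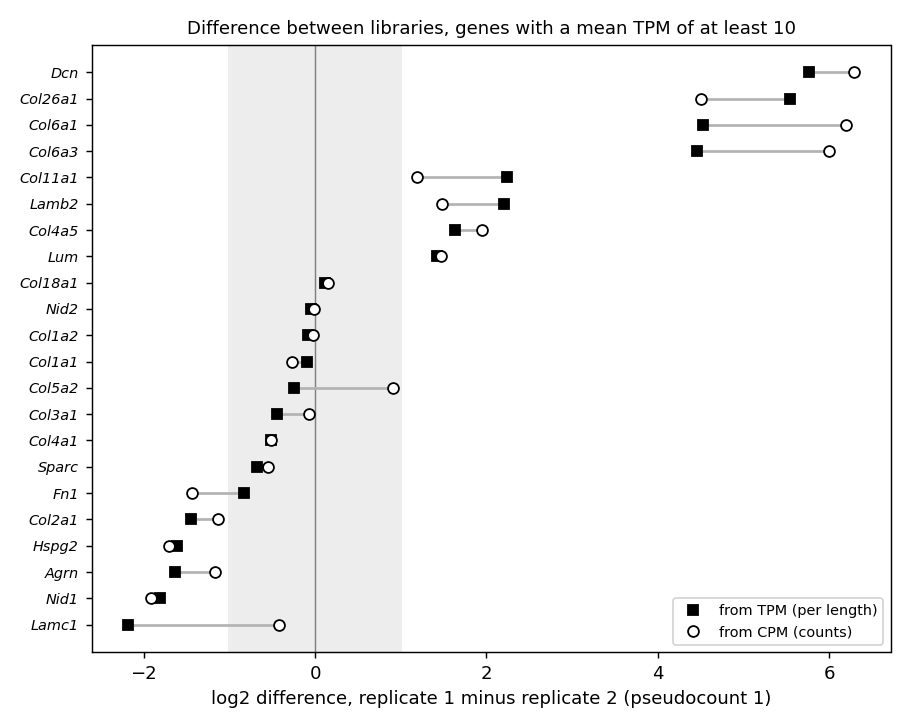
Difference between the libraries, replicate 1 minus replicate 2, for the 22 matrix genes whose mean TPM reached 10, on the log2 scale with a pseudocount of 1, from TPM (filled squares) and from CPM of expected counts (open circles); the shaded band covers differences under 2-fold. Dcn, Col26a1, Col6a1 and Col6a3 stand far to the right on both scales, and Lamc1 leaves the band in TPM alone.

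The libraries also differed in which transcript of a matrix gene was read. Of 13 matrix genes with at least 2 transcripts and 5 TPM or more in each library, 6 had the same leading transcript in both, or 46.2%, beside 65.6% of 4352 genes. These were Col18a1, Col1a1, Col1a2, Col3a1, Col4a1 and Hspg2. The leading transcript differed for Agrn, Col11a1, Col2a1, Col5a2, Fn1, Lamc1 and Sparc. These shares are estimates that the authors' program made from reads that several transcripts can share.

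**Figure D4:**
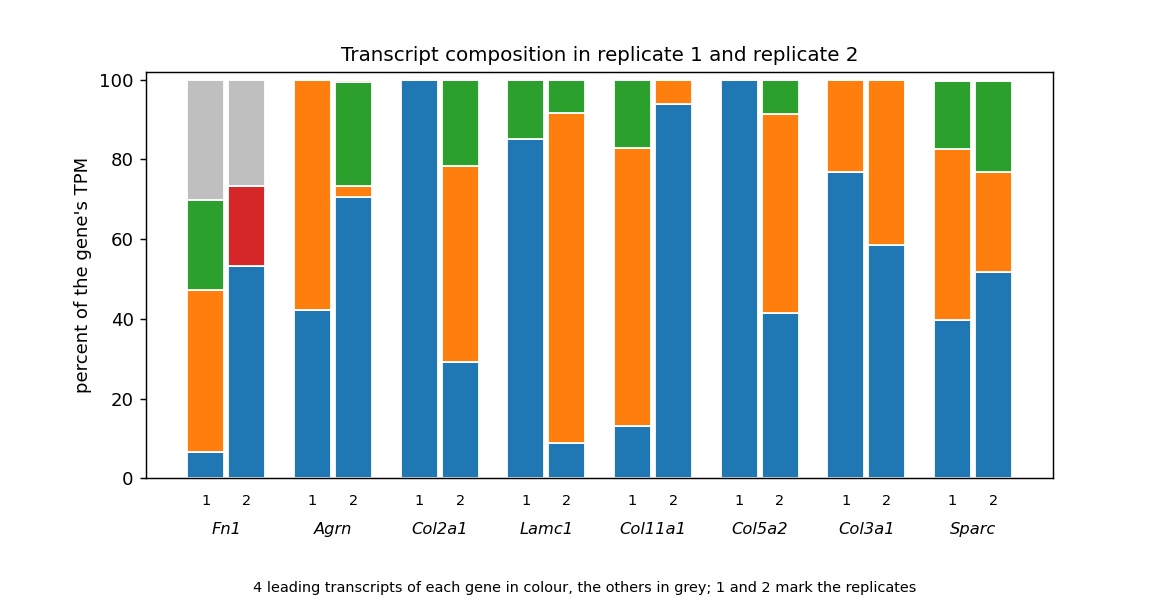
Percent of the gene's TPM (y axis) held by each transcript in replicate 1 and replicate 2, for 8 matrix genes; within a gene a colour marks the same transcript in both bars, up to 4 leading transcripts are coloured and the others are grey. The leading colour changes between the bars for Fn1, Agrn, Lamc1 and Col11a1, and Col2a1 and Col5a2 hold a single transcript in replicate 1.

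In 3 genes the transcripts differed by coding exons with known roles, and these exons are shown because the libraries differed in them. The share of all genes with such a difference in exons was not computed. Agrin made by neurons carries short inserts at the sites named y and z, and the z inserts give it the power to cluster acetylcholine receptors at the muscle synapse. Among protein-coding transcripts, the one with all 3 inserts held 99.7% of the counts in replicate 1 (784 with and 2.20 without) and 9.59% in replicate 2 (125 with and 1175 without). The exons, on the minus strand of mm10, lie at chr4:156169546-156169557 (y, 12 bases), chr4:156168546-156168569 (z, 24 bases) and chr4:156167777-156167809 (z, 33 bases).
Agrn y: aaatcccgcaag
Agrn z, 24 bases: cgagctgaccaatgagatcccagc
Agrn z, 33 bases: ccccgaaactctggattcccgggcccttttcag
Because one annotated transcript holds all 3 inserts and the other protein-coding ones hold none, these values do not separate the inserts from each other.

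Collagen II exists in a form with an extra cysteine-rich domain, known as type IIA, made by cartilage precursors and early embryonic tissues, and a form without it, made by mature cartilage. The exon of 204 bases that sets them apart (chr15:98000403-98000606, minus strand) was in 100% of protein-coding Col2a1 counts in replicate 1, 854 counts, and in 38.6% in replicate 2, with 732 counts with it and 1164 without it. The count with the exon was thus similar in the libraries, and the form without it was read in replicate 2.
Col2a1 exon: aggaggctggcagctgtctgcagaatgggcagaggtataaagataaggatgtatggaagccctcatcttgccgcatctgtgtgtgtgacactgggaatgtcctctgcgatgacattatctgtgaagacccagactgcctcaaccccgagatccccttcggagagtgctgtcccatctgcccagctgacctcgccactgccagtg

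Fibronectin of embryonic tissue commonly includes the extra domains EDB and EDA and a variable region, which the plasma form made by liver lacks in part. Among protein-coding Fn1 transcripts that span these sites, the EDA exon was in none of 1608 counts in replicate 1 and in 100% of 2829 counts in replicate 2. The EDB exon was in none of the counts in replicate 1 and in 99.5% in replicate 2, and the variable region of 360 bases was in 1.03% in replicate 1 and 100% in replicate 2. One transcript with none of these segments held 1592 of the counts in replicate 1. Another with all of them held 2814 of the counts in replicate 2. These values therefore do not separate the segments from each other. The EDA exon (270 bases, chr1:71603660-71603929) and the EDB exon (273 bases, chr1:71613763-71614035) are on the minus strand.
Fn1 EDA: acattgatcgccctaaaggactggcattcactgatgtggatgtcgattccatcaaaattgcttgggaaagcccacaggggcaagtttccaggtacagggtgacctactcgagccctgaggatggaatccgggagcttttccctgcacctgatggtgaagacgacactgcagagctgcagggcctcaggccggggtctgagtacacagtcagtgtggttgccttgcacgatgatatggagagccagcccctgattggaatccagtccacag
Fn1 EDB: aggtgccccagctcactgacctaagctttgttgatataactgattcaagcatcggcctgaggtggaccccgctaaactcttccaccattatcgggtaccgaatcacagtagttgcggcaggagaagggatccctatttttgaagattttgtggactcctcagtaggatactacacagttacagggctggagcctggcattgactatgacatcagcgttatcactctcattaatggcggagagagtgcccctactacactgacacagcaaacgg
The rest of the Fn1 counts went to shorter transcripts, the largest of them over both libraries a retained-intron transcript of 4022 bases with 253 counts in replicate 1 and 3557 in replicate 2.

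Genes that fold, cross-link, bind and cut the matrix were read unevenly, with the folding enzymes the most fully represented. Of 18 genes for collagen folding and modification, 10 were detected in both libraries, 1 in replicate 1 alone, 3 in replicate 2 alone and 4 in neither. The highest were the prolyl isomerase gene Ppib at 347 TPM in replicate 1 and 315 in replicate 2, P4hb, a subunit of prolyl 4-hydroxylase, at 281 and 261, and Serpinh1, the collagen chaperone, at 198 and 139. The differences of these 3 genes were all under 2-fold. Of the 13 folding genes whose mean TPM reached 10, 6 were at least 2-fold apart, where 51.3% of all genes at that level were. Under 1% of depth-scaled counts in one library was found for 3 of the 13, beside 18.1% of all genes. Of 15 genes for processing and cross-linking, 3 were detected in both libraries, 3 in replicate 1 alone, 2 in replicate 2 alone and 7 in neither. Those in both were the procollagen proteinase enhancer gene Pcolce at 34.2 TPM in replicate 1 and 62.3 in replicate 2, Pxdn, which cross-links collagen IV, at 18.4 and 17.8, and the lysyl oxidase relative Loxl2 at 21.9 and 10.6.

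Of 27 matrix receptor genes, 11 were detected in both libraries, none in replicate 1 alone, 3 in replicate 2 alone and 13 in neither. The highest were Dag1, the laminin and agrin receptor dystroglycan, at 42.5 TPM in replicate 1 and 42.3 in replicate 2, the integrin beta 1 gene Itgb1 at 16.8 and 60.2, and the collagen receptor gene Ddr1 at 41.9 and 25.4. Of 16 genes for degradation and its inhibitors, 5 were detected in both libraries, 2 in replicate 1 alone, 2 in replicate 2 alone and 7 in neither. Among these the membrane protease gene Mmp14 was at 44.7 TPM in replicate 1 and 6.80 in replicate 2, Mmp2, whose product Mmp14 activates, at 10.4 and 32.8, and Adam10 at 20.1 and 16.5. Detection in both libraries thus covered 55.6% of the folding genes, 20.0% of the cross-linking genes, 40.7% of the receptors and 31.2% of the degradation genes, beside the 30.4% of protein-coding genes given above.

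**Figure D5:**
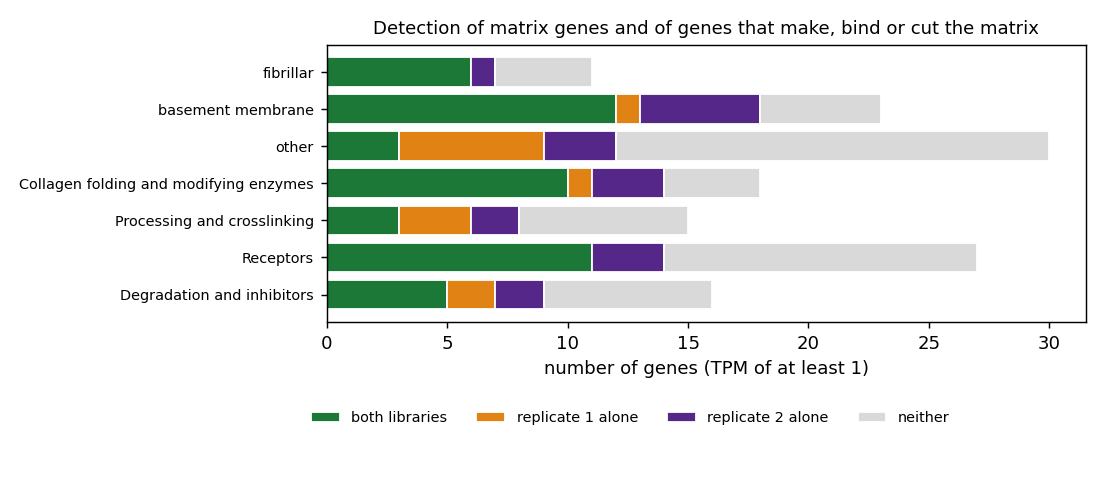
Number of genes (x axis) detected at 1 TPM or more in both libraries, in replicate 1 alone, in replicate 2 alone or in neither, for the 3 classes of matrix genes and 4 lists of genes that make, bind or cut the matrix. Basement membrane genes and receptors have more genes in replicate 2 alone than in replicate 1 alone, and the other matrix genes have most of theirs in neither. Over all gene rows (not drawn) the same held, with 2606 in replicate 2 alone, 1721 in replicate 1 alone and 31812 of 43346 in neither.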

How the data were processed

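Per the labels, both libraries are total RNA of pooled E11.5 forebrain. The authors deposited gene and transcript tables with, per the file headers, expected counts, TPM, FPKM and the percent of a gene's TPM in each transcript. The authors' posterior SDs and interval limits were read as a score, and FPKM and these scores support no result here. The text deposited with the tables names mm10 and annotation M4. No aligner or program is given in the sources used here, nor is the use of strand. TPM as deposited covers all rows, and spike-ins held 8.44% of TPM in replicate 1 and 6.56% in replicate 2, so it lowers gene TPM slightly more in replicate 1.

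Symbols, exons and coordinates came by ID from GENCODE M21 on mm10, which matched 42462 of 43346 gene IDs. For the alternative exons and the glycine repeat, transcripts were used where lengths matched. The levels of other transcripts and the leading transcripts had no such filter. The 52-exon Col1a2 transcript had 5347 bases as deposited and 5348 in M21. CPM was computed from expected counts over gene rows. Python 3.11.15, pandas 2.3.3, numpy 2.4.6 and scipy 1.17.1 were used. Detection was a TPM of at least 1, the pseudocount was 1, and 2-fold gaps were counted at a mean TPM of at least 10. A count of 0 was taken to allow 3 counts, or 0.110 CPM in replicate 1 and 0.107 in replicate 2. Intervals are 95% exact binomial (Clopper-Pearson). Reads carry no molecular identifiers that the files show, so these limits hold for counting error alone. The code for the 2-fold count was run on simulated counts that carried counting error alone. Those counts had no error of amplification or of transcript assignment, so the run does not bear on the spread between these libraries.

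The matrix genes, classes, lists and rules were chosen with earlier results of these data known. By the rule for naming, any matrix gene with a mean TPM of at least 1 may be named, as may collagen I, collagen IV and laminin chains at any level, and the 3 highest of each list detected in both libraries. Genes named outside it, among them those at 0 counts, were chosen after their values were seen. Col1a2 was not used for the glycine repeat. Some genes of the rule are not reported here by name. Nothing shows that the replicates differ in more than pool and library, and with 1 library a pool these cannot be told apart. The alternatives tried were the TPM estimate, its total, the thresholds, the pseudocount, counts in place of TPM and each library alone.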

Additional observations from a re-analysis of the deposited data

How the results depend on the processing

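The number of matrix genes detected in both libraries stayed between 15 and 26 over the alternatives tried, beside 21. The number that differed 2-fold was 26 at a mean TPM of at least 1 and 27 with no filter on low values, against 13 as reported, since both admit more genes. The number with under 1% of counts in one library was 9 at a mean TPM of at least 1, against 4. At that level there were 36 matrix genes. The share over all genes was not computed at these looser filters, so these counts are not read as a trait of the matrix genes. By expected counts in place of TPM, which do not divide by length, fibrillar genes held 39.8% of the matrix gene sum in place of 29.5%, basement membrane genes 27.5% in place of 18.0%, and the others 32.7% in place of 52.5%. The count ratio was 1.12 for Col1a1 to Col1a2, against 1.08 in TPM, and 0.640 for Lamb1 to Lamc1, against 0.389. Of the genes for degradation, 3 reached 5 TPM in both libraries, against 5 genes at 1 TPM.

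Leaving out replicate 1 or replicate 2 returns the value of the other library, so it does not test a result. The class sums then ranged from 280 to 319 TPM for fibrillar, 147 to 218 for basement membrane and 484 to 580 for other matrix genes. The chain ratios ranged from 1.07 to 1.08 for Col1a1 to Col1a2, 4.27 to 6.09 for Col4a1 to Col4a2 and 0.283 to 0.494 for Lamb1 to Lamc1. Rescaling TPM to genes alone moved the mean level of 4 of 22 genes by more than their SD, namely Col1a1, Col1a2, Col18a1 and Nid2, and the posterior mean moved none. No paired analysis was possible because the study has one group.

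With 1 cell-equivalent of RNA per library, a gene at 0 counts here is not shown to be absent from the tissue. Depth limits only the libraries.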
